A study of Mus musculus with 6 samples.

Results

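The insulin and IGF axis was described through 10 genes: the ligand gene Igf2, the receptor genes Igf1r, Insr and Igf2r, the adaptor genes Irs1 and Irs2, and the IGF-binding protein genes Igfbp2, Igfbp3, Igfbp4 and Igfbp5. They were taken by name, without regard to their values, as every probe set whose only gene symbol in the platform's annotation was one of these 10, which gave 25 of 45037 probe sets that are not controls. After each gene was reduced to 1 probe set, they were 10 of 18193 genes. The cells were mouse breast cancer cells, labelled as breast cancer stem cells, grown in medium with serum and sorted by the surface proteins CD24, a mucin-like glycoprotein, and CD29, the integrin beta-1 chain. The groups were cells positive for both (CD24+CD29+) and cells negative for both (CD24-CD29-), each read on 3 Affymetrix Mouse430_2 arrays. The sources used here name no cell line, mouse strain or treatment beyond the sort. The series calls its sample sets independent, but no label names separate cultures, sorts or animals, so the p-values measure the spread between these samples, which may be partly technical.

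Insulin and the insulin-like growth factors are secreted hormones that bind receptor tyrosine kinases. The insulin receptor and the IGF1 receptor phosphorylate the IRS adaptor proteins, which recruit PI3K and switch on AKT and mTOR, while the IGF2 receptor, also the mannose 6-phosphate receptor, carries IGF2 to the lysosome for breakdown. The IGF-binding proteins hold IGFs outside the cell, and proteases cut them to set the ligand free. In the mammary gland this axis is known for supporting growth and survival of the epithelium, and IGFBP5 for its rise during involution after lactation. Igf2 and Igf2r are both imprinted, Igf2 being expressed mainly from the paternal and Igf2r from the maternal copy.

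Of the 10 genes, 6 were higher in CD24+CD29+ cells, 3 were lower and 1 did not pass. The threshold was a Benjamini-Hochberg adjusted p of 0.05 in a limma fit over all genes, which 70.8% of all genes passed, 34.4% as higher and 36.5% as lower. Irs1 and Igf2 were higher by at least 2-fold, as were 3.01% of all genes, and Irs2 was lower by at least 2-fold, as were 1.66%. The median difference of the 10 genes was 0.51 on the log2 scale, against -0.04 over all genes. The probe sets of all 10 were bright, at percentiles 79.6 to 99.5 of all genes, and rises were common at such levels: of 2812 genes with a mean level of 10 to 13, which include 7 of the 10, 52.5% were higher, 27% were lower and the median difference was 0.13. Differences are log2 values, with the CD24-CD29- mean subtracted from the CD24+CD29+ mean.

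These directions are relative to the rest of the array, as deposited. For the poly-A control RNAs added to each sample the median difference was -1.17, and scaling to them (poly-A scaling) added 1.17 to the difference of every gene, so that all 10 genes passed as higher. Relative to the median of all genes, which no such scaling changes, Irs1 stood at 1.13, Igf2 at 1.08 and Irs2 at -0.97, while Igf1r stood at -0.07. The values came with no detection calls. The lower quartiles of the 6 arrays ran from 5.20 to 5.41 and their highest values from 14.91 to 14.95. Within a group, arrays correlated at r = 0.998 to 0.999 across genes, which are not independent replicates.

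The promoters are shown for the 4 genes whose sequence held CACGTG, the core of the E-box read by basic helix-loop-helix factors. They were picked because they include both adaptor genes, which moved in opposite directions on the deposited scale. Under poly-A scaling both adaptor genes were higher, Irs1 by 2.27 and Irs2 by 0.17. Sequences come from RefSeq on GRCm38.p6, which has promoters for 9 of the 10 genes (13 promoters), and each window is the 150 bases before the transcript start, 5′ to 3′ on the gene's strand. Capitals mark CACGTG and TGTTTTG, the latter a form of the insulin response sequence, and both were chosen after the sequences had been read. The windows are chr1:82291440-82291589 (minus strand) for Irs1, chr8:11008930-11009079 (minus strand) for Irs2, chr17:12769707-12769856 (minus strand) for Igf2r and chr1:72824330-72824479 (plus strand) for Igfbp2.
Irs1: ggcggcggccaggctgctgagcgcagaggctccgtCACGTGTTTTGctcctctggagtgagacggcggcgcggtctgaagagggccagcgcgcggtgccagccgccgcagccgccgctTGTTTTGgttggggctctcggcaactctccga
Irs2: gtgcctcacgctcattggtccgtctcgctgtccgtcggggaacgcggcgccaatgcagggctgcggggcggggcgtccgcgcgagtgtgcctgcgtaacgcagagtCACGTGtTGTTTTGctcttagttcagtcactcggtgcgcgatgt
Igf2r: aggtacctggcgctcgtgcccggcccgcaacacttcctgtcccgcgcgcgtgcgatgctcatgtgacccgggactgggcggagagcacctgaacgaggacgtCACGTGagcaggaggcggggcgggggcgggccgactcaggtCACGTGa
Igfbp2: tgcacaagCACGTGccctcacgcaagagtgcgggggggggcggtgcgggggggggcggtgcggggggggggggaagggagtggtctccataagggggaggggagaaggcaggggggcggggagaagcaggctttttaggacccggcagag
Searched on both strands over the whole 300 bases of each promoter, CACGTG was in 4 of the 13 promoters and in 7.15% of all 32851 promoters, and TGTTTTG was in 2 of the 13, those of Irs1 and Irs2, and in 6.28% of all. Both motifs together were in 0.41% of all promoters. Because the motifs were chosen after these sequences had been read, the shares cannot show whether the members hold them unusually often. In Irs1 the E-box began 115 bases before the start and overlapped a TGTTTTG that began at 111, with another at 32. In Irs2 the E-box began at 44 and TGTTTTG at 37, with 1 base between them. The adaptor genes, with opposite differences on the deposited scale, thus hold the same pair of letter strings close together, and a match describes the sequence only.

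The ligand gene Igf2 was 2.06-fold higher in CD24+CD29+ cells. Its main probe set read 13.03, 13.02 and 13.08 on the CD24+CD29+ arrays and 11.97, 12.04 and 11.99 on the CD24-CD29- arrays (log2 expression). Every CD24+CD29+ array was above every CD24-CD29- array. The groups did not overlap, in either direction, for 9 of the 10 genes and for 73.6% of all genes. The difference was 1.04 (SE 0.04, limma adjusted p = 1e-06), and the other, dimmer probe set, at 7.45 against 6.69, differed by 0.76 in the same direction. Igf2r, whose product removes IGF2, was also higher, by 1.53-fold. It read 10.83, 10.87 and 10.93 against 10.20, 10.32 and 10.26, with no overlap, and its difference was 0.61 (SE 0.05, limma adjusted p = 2.3e-05), or 0.84 on its other probe set. The log2 ratio of Igf2 to Igf2r within an array differed between the groups by 0.43 (exact permutation test over arrays, 2-sided, p = 0.1, the smallest that 3 arrays against 3 can give, and 0.12 adjusted over 6 ratios), but by 0.17 with the mean of each gene's probe sets.

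**Figure D1:**
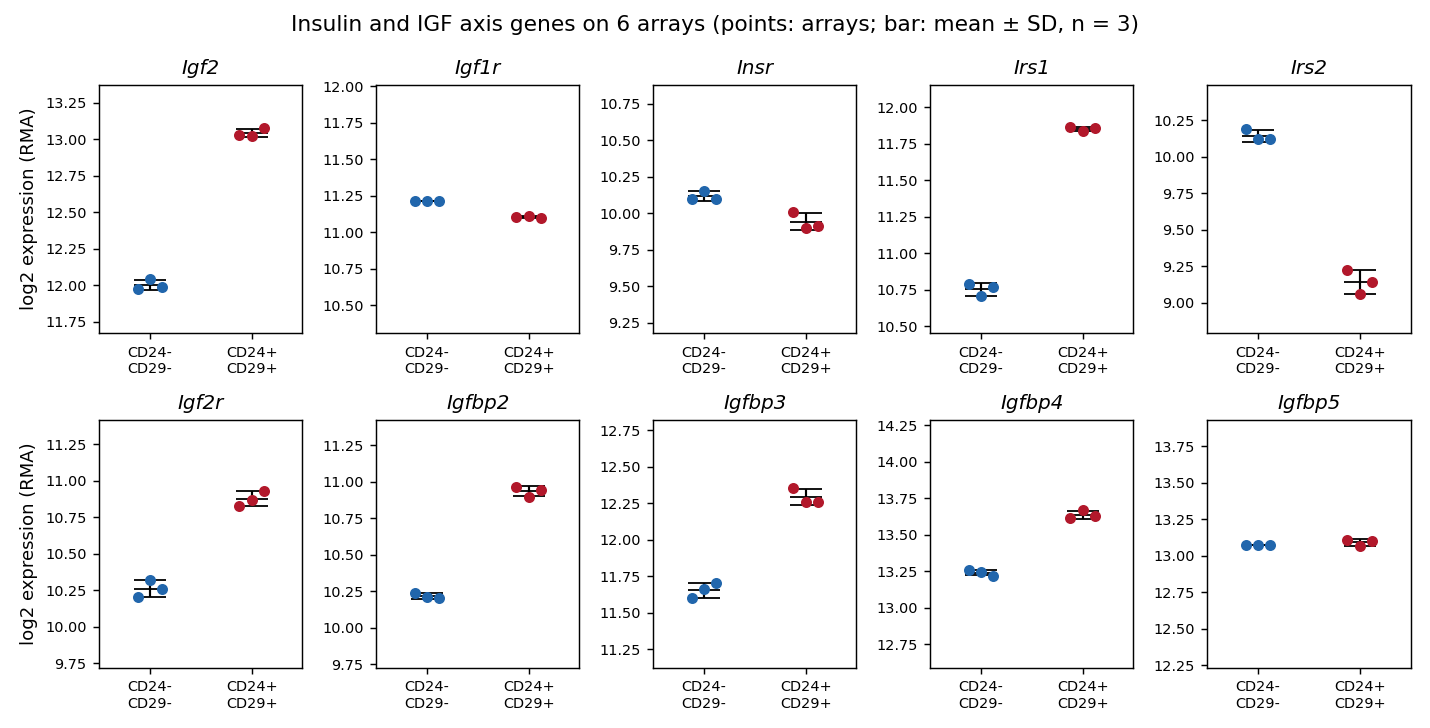
Log2 expression (RMA values) of the 10 genes on each array, on axes of equal span; points are arrays, bars the mean ± SD of 3 arrays. Igf2 and Irs1 are about 1 unit higher and Irs2 about 1 unit lower in CD24+CD29+ cells on the deposited scale (Irs2 is higher by 0.17 under poly-A scaling), and Igfbp5 overlaps between the groups.

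The signalling receptors differed little. Insr, the insulin receptor gene, read 10.01, 9.90 and 9.91 on CD24+CD29+ arrays and 10.10, 10.15 and 10.10 on CD24-CD29- arrays, so that it was 1.13-fold lower (difference -0.18, SE 0.05, limma adjusted p = 0.011), or higher by 0.99 under poly-A scaling. After median centring the difference was -0.12 and the call was lost (limma adjusted p = 0.054), while quantile normalization and cyclic loess gave larger differences, of -0.33 and -0.34 (limma adjusted p = 0.00021 and 2e-04). Its dim probe sets, with means between 5.25 and 5.92 in either group, differed by -0.33 and by 0.10, the latter not past the threshold. Igf1r, the gene of the main signalling receptor for IGF1 and IGF2, read 11.10, 11.11 and 11.10 against 11.21, 11.21 and 11.21 on its brightest probe set. The groups did not overlap, and the difference of -0.11 (SE 0.04, limma adjusted p = 0.031; 95% confidence interval -0.20 to -0.02) was small. This call was lost when any 1 of the 6 arrays was left out (limma adjusted p = 0.054 to 0.09).

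The direction of Igf1r also depended on the probe set. Of its 5 probe sets, 2 passed as higher in a fit over all probe sets, none as lower, and the brightest one, at an adjusted p of 0.066 by limma in that fit, did not pass. The dimmest, 1452108_at, read 7.81, 7.82 and 7.87 on CD24+CD29+ arrays and 7.33, 7.38 and 7.06 on CD24-CD29- arrays, a difference of 0.58. Probe set 1446303_at differed by 0.28, or by 0.07 after quantile normalization, where it did not pass (limma adjusted p = 0.25). The mean of the 5 probe sets was higher by 0.18 (limma adjusted p = 0.0031), the opposite sign to the brightest, so the data give Igf1r no settled direction. The log2 ratio of Igf1r to Insr differed by 0.07 between the groups (exact permutation test, 2-sided, p = 0.3), or by 0.32 with the mean of probe sets.

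The adaptor genes, whose products link both receptors to PI3K, gave the largest change among the 6 ratios computed. Irs1 was 2.14-fold higher in CD24+CD29+ cells, and Irs2 was 2-fold lower, or higher by 0.17 under poly-A scaling. Irs1 read 11.86, 11.84 and 11.86 on the CD24+CD29+ arrays and 10.79, 10.70 and 10.77 on the CD24-CD29- arrays (difference 1.10, SE 0.04, limma adjusted p = 8.2e-07). Irs2 read 9.23, 9.06 and 9.14 against 10.19, 10.12 and 10.12 (difference -1.0, SE 0.05, limma adjusted p = 3.4e-06). Neither gene's groups overlapped, and each was read by 1 probe set, so no other probe set checks it. The contrast between them does not depend on how arrays are scaled by a constant. The log2 ratio of Irs1 to Irs2 was 2.64 to 2.78 on CD24+CD29+ arrays and 0.59 to 0.65 on CD24-CD29- arrays. It changed by 2.10, a 4.29-fold change of the ratio (exact permutation test, 2-sided, p = 0.1, the smallest possible here, and 0.12 adjusted over 6 ratios), and by 2.07 to 2.20 over 12 other settings.

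The genes most like Irs1 over the 6 arrays, by the distance between log2 values centred on each gene's mean, were Palmd, Gpsm2 and Siae (distances 0.03, 0.05 and 0.05; differences 1.09, 1.11 and 1.09). Those most like Irs2 were Klf2, Arg1 and Rab11fip5 (0.06, 0.08 and 0.08), with differences of -1.0, -0.96 and -1.04. Likeness over 2 groups of arrays mostly reflects the size of the difference: 261 genes lay within a distance of 0.2 of Irs1 and 97 within 0.2 of Irs2.

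**Figure D2:**
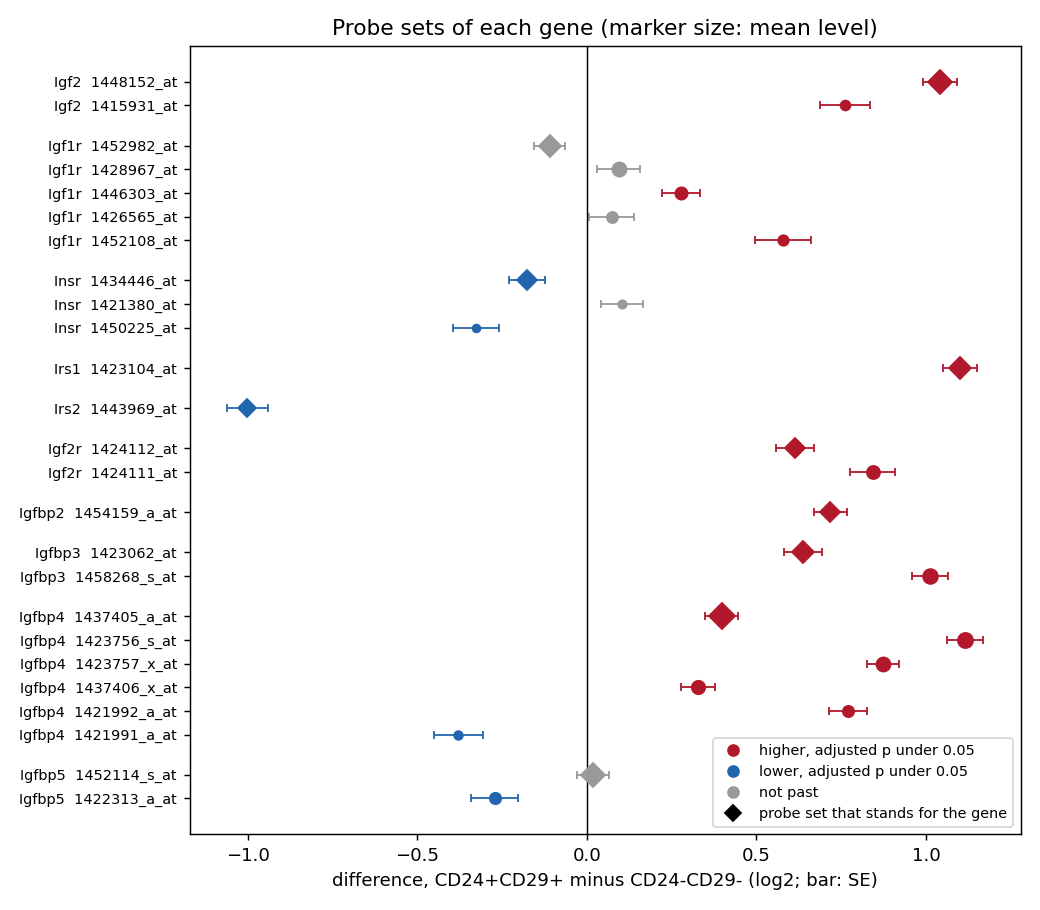
Difference of each of the 25 probe sets, CD24+CD29+ minus CD24-CD29- (log2; bars are the SE of the limma fit over all probe sets; marker size follows the mean level). The probe sets of Igf2, Igf2r and Igfbp3 lie on one side, while those of Igf1r, Insr, Igfbp4 and Igfbp5 lie on both sides of 0 on the deposited scale; under poly-A scaling all 25 are higher.

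Of the 25 probe sets, 15 passed as higher and 5 as lower in the fit over all probe sets, where 29.2% and 34.8% of all probe sets did, or 63.9% in either direction. The groups did not overlap for 21 of the 25, and for 68.2% of all probe sets. Probe sets of a gene share its transcripts and are not replicates of a condition.

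Of the 4 binding protein genes, 3 were higher in CD24+CD29+ cells and Igfbp5 did not differ detectably on its brighter probe set. Of all genes 34.4% were higher, and 52.5% of those with a mean level of 10 to 13, a band below the levels of Igfbp4 and Igfbp5. Igfbp2, whose product can also bind integrins, read 10.96, 10.89 and 10.94 on CD24+CD29+ arrays and 10.24, 10.21 and 10.20 on CD24-CD29- arrays. The groups were apart, and the difference was 0.72, or 1.64-fold (SE 0.04, limma adjusted p = 4.3e-06). Igfbp3, whose product is the main IGF carrier in blood, read 12.36, 12.26 and 12.26 against 11.60, 11.66 and 11.70. It was 1.55-fold higher (difference 0.64, SE 0.05, limma adjusted p = 1.8e-05), and its other probe set was 2.02-fold higher.

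Igfbp4, which encodes an inhibitory binding protein that the protease PAPP-A cuts, was higher by 1.32-fold on the probe set that stands for it. It read 13.62, 13.67 and 13.63 against 13.26, 13.24 and 13.22, with no overlap (difference 0.40, SE 0.04, limma adjusted p = 7e-05). Its 6 probe sets gave differences from -0.38 to 1.11. The largest, 2.17-fold, came from 1423756_s_at, at 11.76 against 10.65. The dimmest, 1421991_a_at, at 5.89 against 6.27, was the only one lower, and it turns higher by 0.79 under poly-A scaling. The mean of the 6 was higher by 0.52.

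Igfbp5 read 13.11, 13.06 and 13.10 on CD24+CD29+ arrays and 13.07, 13.07 and 13.08 on CD24-CD29- arrays, and the groups overlapped. Its difference was 0.02 (SE 0.04, limma adjusted p = 0.71), with a 95% confidence interval from -0.07 to 0.11. Its other probe set, at 8.12 against 8.39, was lower by a difference of -0.27 (limma adjusted p = 0.0085 over all probe sets), or higher by 0.90 under poly-A scaling. The mean of its probe sets passed as lower on the deposited scale, at -0.13 (limma adjusted p = 0.038). Igfbp2 and Igfbp5 are next to each other among protein-coding genes on chromosome 1, and their log2 ratio, Igfbp5 to Igfbp2, was 2.15 to 2.17 on CD24+CD29+ arrays against 2.84 to 2.87 on CD24-CD29- arrays. It changed by -0.70, a 1.63-fold change, and by -0.85 to -0.52 over 12 other settings. The ratio of Igfbp4 to Igfbp5 changed by 0.38, or by 0.64 with the mean of probe sets. That of Igfbp3 to Igfbp4 changed by 0.24, or by 0.15 after quantile normalization and 0.14 after cyclic loess. For each of these 3 ratios the groups did not overlap, at p = 0.1 in an exact permutation test (2-sided, 0.12 adjusted over 6 ratios). The smallest p the design allows is thus reached, and none of the 6 ratios can pass 0.05.

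**Figure D3:**
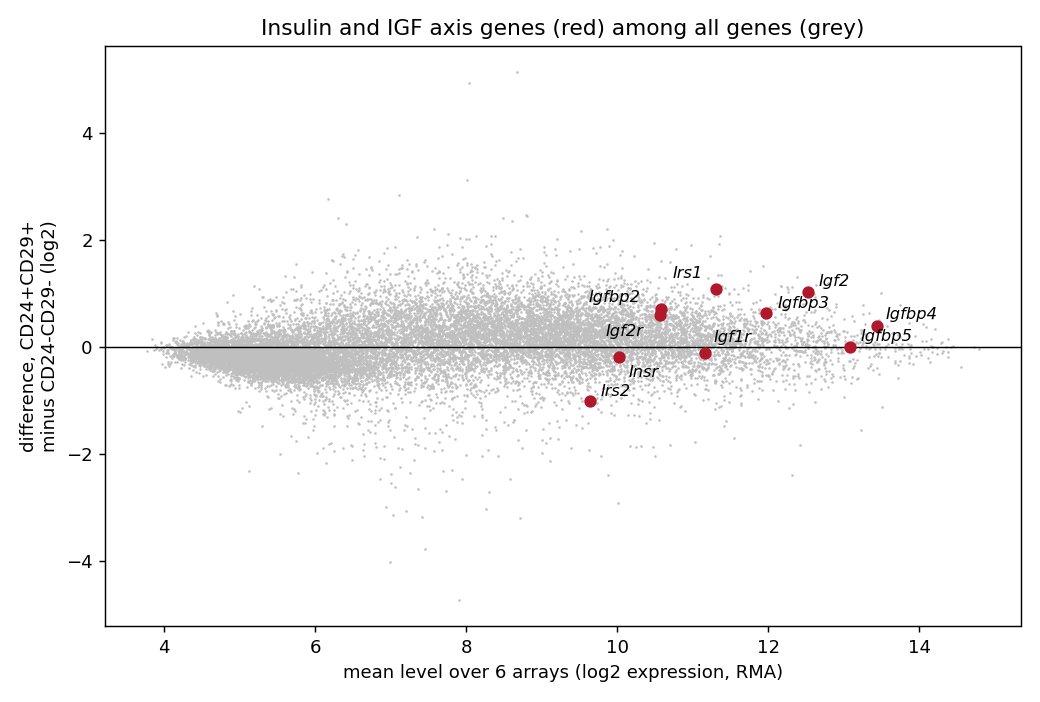
Difference between the groups (log2, CD24+CD29+ minus CD24-CD29-) against the mean level over 6 arrays (log2 expression) for 18193 genes, with the 10 genes in red. The 10 genes lie at the bright end, between mean levels of 9.64 and 13.44, and all but Irs2, Insr and Igf1r lie above 0 (these 3 as well under poly-A scaling).

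The other genes of the pathway were described in 6 lists by role, of 66 genes, of which 59 were analysed here. Of the 59, 30 were higher, 15 were lower and 14 did not pass, against 34.4% higher and 36.5% lower of all genes, with a median difference of 0.15. Their median level was 9.35, against 7.15 for all genes. At a mean level of 10 to 13, 52.5% of genes were higher and 27% lower, with a median difference of 0.13. That band lies above the median level of the 59, so it does not match them in level. Under poly-A scaling 14 of the 15 lower genes turn positive, and Igfals remained lower. Of 7 ligand and further binding protein genes, 2 rose and 3 fell. Igf1, the other growth factor ligand, was 2.48-fold higher, at 8.76, 8.72 and 8.69 on CD24+CD29+ arrays against 7.45, 7.53 and 7.25 on CD24-CD29- arrays (difference 1.31, SE 0.07, limma adjusted p = 3.9e-06). Igfbp7, which encodes a related protein with weak IGF binding, was higher by 1.73-fold. Igfals, whose product joins IGF and IGFBP3 in the large complex of the blood, was 2.78-fold lower, at 5.68 against 7.15. Igfbpl1 and the insulin gene Ins2 were lower by differences of -0.49 and -0.52 (or higher under poly-A scaling, by 0.68 and 0.65). Ins2 was read by a single _x_at probe set, a kind that can cross-hybridise, at 6.46 against 6.98.

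Of 8 genes of the proteases that cut binding proteins, and of the inhibitors of those proteases, 6 rose and 1 fell. Of all genes 34.4% rose and 36.5% fell, or 52.5% and 27% at a mean level of 10 to 13. The median level of the 8 genes was 8.91, below that band. Pappa, the gene of PAPP-A, which cuts IGFBP4, was 4.07-fold higher. It read 9.06, 8.96 and 9.0 on CD24+CD29+ arrays against 7.03, 6.96 and 6.95 on CD24-CD29- arrays (difference 2.03, SE 0.05, limma adjusted p = 1.4e-07), or 1.04 with the mean of its 3 probe sets. Adam12 and Htra1, genes of further proteases reported to cut binding proteins, were higher by 2.79-fold and 2.48-fold (Adam12 by a log2 difference of 0.95 with the mean of its probe sets). Pappa2 was lower by a difference of -0.30 at a level of 4.99 against 5.29, which lies near the lower quartile of an array, and higher by 0.87 under poly-A scaling. Of the inhibitor genes in the list, Stc2 was higher by 1.59-fold and Stc1 did not pass. Igf2, Igf1, Pappa, Igfbp4 and Stc2 were each higher in CD24+CD29+ cells, while Igfals, Ins2 and Pappa2 were lower on the deposited scale. A link between these genes was not tested.

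Of 12 genes in the list of receptor adaptors, which also holds Insrr, the gene of the insulin receptor-related receptor, 5 rose and 2 fell. The shares of all genes were 34.4% and 36.5%. The adaptor genes Sh2b2, Sh2b1 and Gab1 were higher by 2.09-fold, 1.59-fold and 1.44-fold. With the mean of their probe sets the log2 differences were 0.53, 0.14 and 0.24, and Sh2b1 had a probe set that passed in the opposite direction. Dok1 and Irs4 were lower, by differences of -0.48 and -0.30, or higher by 0.68 and 0.87 under poly-A scaling. The dim gene Insrr, at 6.02 against 6.06, did not pass. Of 15 genes of the PI3K and AKT core, 9 rose and 3 fell, against 34.4% and 36.5% of all genes. At a mean level of 10 to 13, above the median level of 9.66 of these 15, the shares were 52.5% and 27%. Akt1, Mtor and the regulatory subunit gene Pik3r2 were higher, by 2.82-fold, 1.75-fold and 1.71-fold, while the mean of probe sets gave log2 differences of 0.58 for Akt1 and 0.19 for Mtor, each of which had 1 probe set that passed in the opposite direction. Pik3r1, Gsk3a and Pik3cd were lower, by differences of -0.52, -0.49 and -0.47, or higher by 0.65, 0.68 and 0.70 under poly-A scaling. The regulatory subunit genes of PI3K thus differed in direction, Pik3r1 lower on the deposited scale and Pik3r2 higher.

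Of 14 genes of inhibitors of insulin and IGF signalling, 8 rose and 4 fell. Of all genes 34.4% rose and 36.5% fell, or 52.5% and 27% at a mean level of 10 to 13. The median level of the 14 genes was 9.93, just below that band. Grb10 and Grb14, which encode adaptors that bind the activated receptors and block them, were higher by 2.62-fold and 2.02-fold, and Socs2, a feedback inhibitor gene of cytokine signalling, by 2.08-fold. With the mean of probe sets these differences were 0.45, 0.66 and 0.58 on the log2 scale, and Grb10 had 1 probe set that passed in the opposite direction. The phosphatase genes Inpp5k and Phlpp1 and the ubiquitin ligase gene Nedd4 were lower, by differences of -0.64, -0.23 and -0.31. All 3 turn higher under poly-A scaling, by 0.53, 0.94 and 0.86, and 2 of the 3 probe sets of Nedd4 passed as higher. With the mean of probe sets Nedd4 turned to 0.02, which did not pass, and Inpp5k was at -0.34. Genes of the FoxO factors, which AKT keeps out of the nucleus and which are known to switch on Irs2, had no rises: of 3, Foxo4 and Foxo3 were lower by 1.79-fold and 1.70-fold (differences -0.84 and -0.76), or higher by 0.33 and 0.41 under poly-A scaling. With the mean of its probe sets Foxo3 was at -0.49. It read 9.83, 9.92 and 9.79 on CD24+CD29+ arrays against 10.52, 10.61 and 10.69 on CD24-CD29- arrays, and Foxo1, at 10.91 against 11.03, did not pass.

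**Figure D4:**
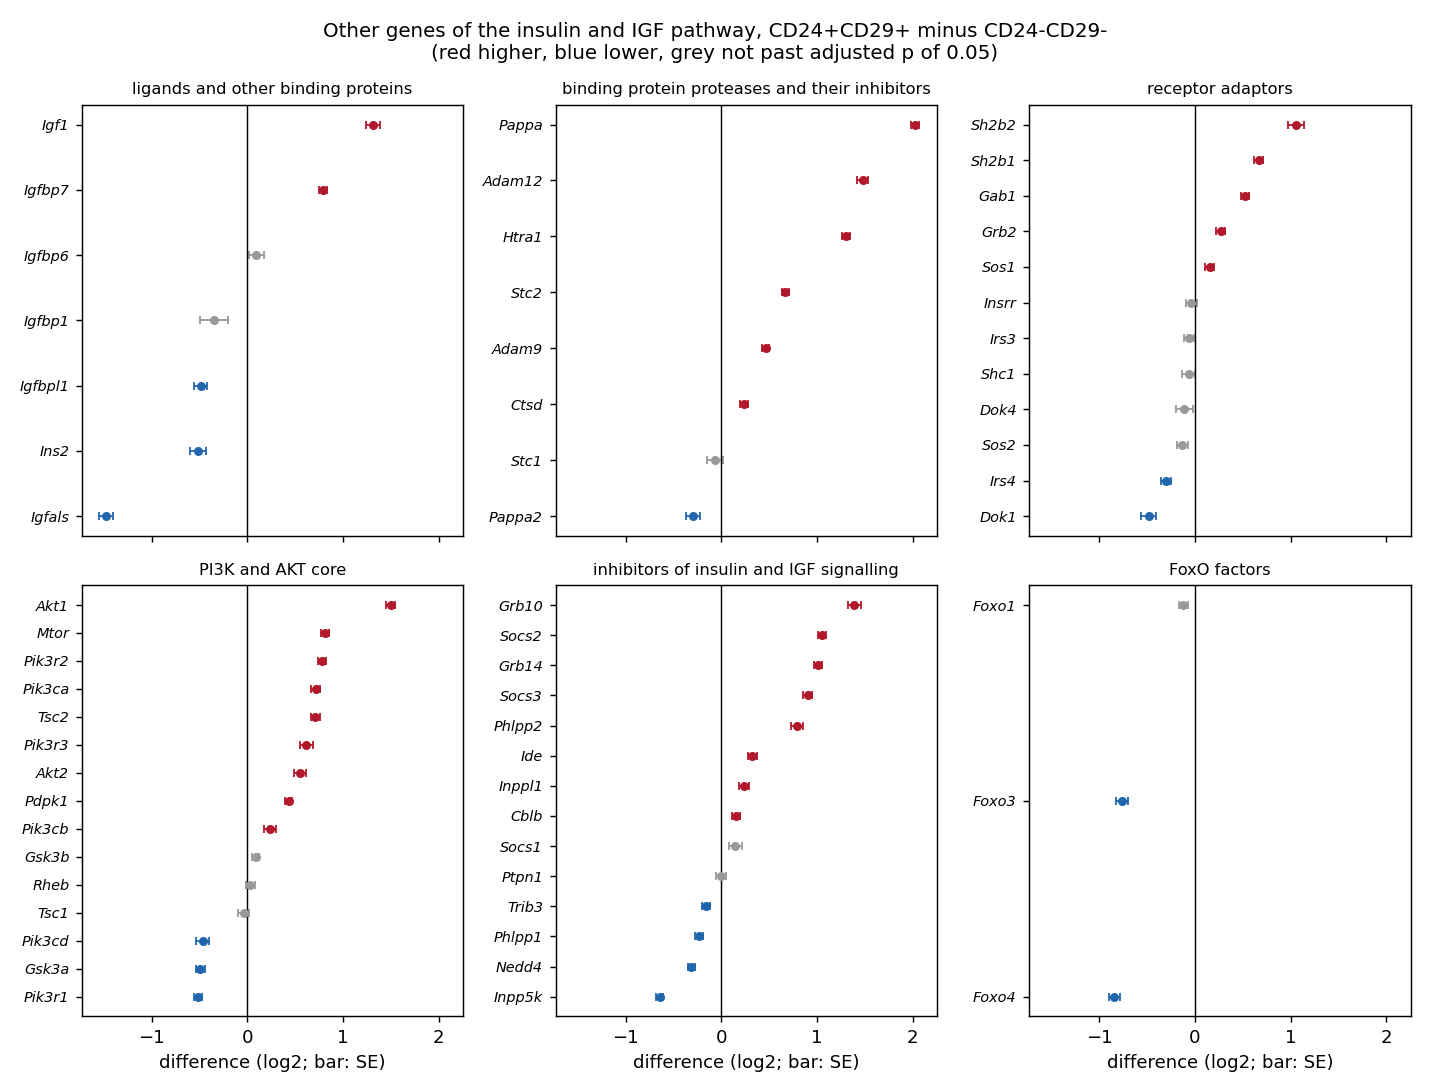
Difference of the other 59 pathway genes, CD24+CD29+ minus CD24-CD29- (log2; bars are the SE of the fit), in 6 lists by role; red passed as higher, blue as lower and grey did not pass. Pappa, Akt1, Adam12 and Grb10 lie farthest to the right and Igfals farthest to the left; of the genes in blue only Igfals stays lower under poly-A scaling.

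Markers of the labelled cells and of other cells were read on the same arrays, where 34.4% of all genes were higher and 36.5% lower. All 8 epithelial markers had a mean level above 8, and Epcam stood at 14.1 in both groups, but 2 of the 8 rose and 4 fell. The basal keratin genes Krt14 and Krt5 were higher by differences of 0.99 and 0.65. The luminal keratin genes Krt19, Krt18 and Krt8 were lower by differences of -0.95, -0.42 and -0.17, and Cldn7 by -0.13, all smaller in size than the 1.17 that poly-A scaling adds. The part of this keratin shift in the results above was not tested. Of 12 fibroblast markers, 10 were higher in CD24+CD29+ cells and none was lower, and their mean level per array was 8.78 to 8.82 there against 8.0 to 8.03 on CD24-CD29- arrays. Col1a2 was 4.07-fold higher, while Dpt and Pi16 lay between 5.56 and 5.89 in both groups. Fibroblast markers were thus higher in the same group as 6 of the 10 genes, 30 of the other 59 pathway genes and 34.4% of all genes. The part of fibroblast markers in these results was not tested. Of 11 leukocyte markers, 7 were lower and none was higher, with a mean level of 5.73 to 5.81 against 6.07 to 6.14, a gap that poly-A scaling also reverses. These markers were dim, with a median level of 5.64. Lower calls over all genes dropped from 6638 to 2966 without the dimmest 40%, so dim genes in general often read lower. Ptprc lay at 4.85 and 4.94, below the lower quartile of an array, and no leukocyte, endothelial or adipocyte marker had a mean level above 8. In bulk RNA of this kind fewer cells of a type and less RNA per cell cannot be told apart.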

How the data were processed

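Total RNA of 6 samples of sorted cells was read on Affymetrix Mouse430_2 arrays, 1 per sample. The deposited values are on the log2 scale, made with RMA and Partek per the submitters' processing notes, with versions, settings and genome build not given in the sources used here. The platform's annotation table gave the gene names: 34945 had 1 gene symbol, 932 several and 9160 none, and a gene was named only from a probe set with 1 symbol. H19, whose probe set names several genes, and Ins1 were not analysed here. A gene was represented by its brightest probe set, leaving out _x_at probe sets where it had another. Groups come from the sample titles. The comparison used lmFit and eBayes of limma 3.58.1 (R 4.3.3), with p-values Benjamini-Hochberg adjusted over 18193 genes or 45037 probe sets, with a threshold of 0.05. The scripts were tested on simulated data. Ratios of genes within an array were compared with an exact permutation test. The number of arrays limits the precision (median SE 0.06). The members, the gene lists and the tests were chosen with earlier results of these data known. All 10 members are named; of each role list, up to 3 of the largest rises and falls past the threshold are named, with Igf1, Ins2 and Insrr in any case, and the 3 genes nearest to the member with the largest rise and to that with the largest fall. Other genes named were chosen after their values were seen. Alternatives were 4 other scalings, 2 filters on dim genes, 2 other choices of probe set, 2 variance models, the replicate number as a block and each array left out.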

Additional observations from a re-analysis of the deposited data

How the results depend on the processing

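Igf2, Irs1, Igf2r, Igfbp2, Igfbp3 and Igfbp4 kept their direction and their call under all 17 other settings, with Igf2 at 0.90 to 2.21 and Irs1 at 1.01 to 2.27. Scaling to the poly-A controls gave 10 higher and 0 lower of the 10 genes, 25 higher and 0 lower of their 25 probe sets, 58 higher and 1 lower of the other pathway genes, and 17902 higher and 148 lower of all genes. It reversed Irs2 (0.17), Insr (0.99) and Igf1r (1.06), and the lower probe sets 1421991_a_at of Igfbp4 (0.79), 1422313_a_at of Igfbp5 (0.90) and 1450225_at of Insr (0.84). Median centring left 1 lower gene of the 10, Irs2, since Insr and Igf1r no longer passed. Without the dimmest 40% of genes 2966 of all genes were lower, against 6638 in the main fit. By the same filter 5740 were higher, against 6251, so the calls lost were mostly lower ones. The mean of probe sets reversed Igf1r (0.18) and Igfbp5 (-0.13), and both passed there (limma adjusted p = 0.0031 and 0.038). Igf1r probe sets 1426565_at and 1428967_at, which did not pass, were reversed by quantile normalization (-0.12 and -0.035) and by cyclic loess (-0.13 and -0.045). The cause was not tested.

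Leaving out each array in turn left 6 higher and 2 lower genes of the 10, since Igf1r no longer passed. Deviations of same-numbered arrays correlated at 0.20, -0.04 and 0.05 over probe sets, and those of different-numbered arrays at -0.22 to 0.18. With 3 arrays per group these values cannot show whether the replicate numbers pair the samples. With the replicate number as a block, 6 of the 10 genes were higher and 2 lower, and of all genes 6200 were higher and 6667 lower. Igf1r lost its call there (limma adjusted p = 0.061). The number of arrays limits what could be detected.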
